A study of Mus musculus with 16 samples.

Results

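The 10 genes described here are immediate early genes, chosen by symbol for their function: Fos, Fosb, Jun, Junb, Jund, Egr1, Atf3, Ier2, Nr4a1 and Dusp1. They were chosen with earlier results of these data known. Each symbol matched exactly 1 of the 55385 genes of the deposited count table. Short-read RNA-Seq was available for lung, kidney, spleen, heart, liver, muscle and both brown and white adipose of male C57BL/6 mice. The fed group had free access to chow and the fasting group went 24 h without food. The mice of both groups were 12 weeks old on arrival, had an acclimatization of at least 10 to 14 days, and were euthanized at 10 am. The same tissue was combined over the 3 mice of a group before extraction, so that 1 library stood for each tissue and treatment, 16 libraries in all, and no value of a single tissue has a replicate error. In bulk tissue, fewer cells of a type and less RNA per cell cannot be told apart.

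Immediate early genes are transcribed within minutes of a stimulus, from transcription factors that are already present in the cell, and their short-lived transcripts decay soon afterwards. FOS and FOSB pair with JUN, JUNB or JUND to form the transcription factor AP-1. EGR1 is a zinc finger transcription factor, ATF3 a stress-induced factor of the ATF/CREB family, NR4A1 an orphan nuclear receptor and IER2 a small nuclear protein, whereas DUSP1 is a phosphatase that inactivates mitogen-activated protein kinases. Serum response factor (SRF) with its ELK partners, and the cAMP-responsive factor CREB, are well known activators of this class. Because the response is so fast, the level in a harvested tissue depends on the last stimuli it met and can include handling and dissection, a part that was not tested here.

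Total counts per library lay between 14245178 and 36069968. A floor of 3 counts corresponds to 0.0832 to 0.211 CPM (the count of a gene scaled to the total of its library), and the counts of the 10 genes ran from 5 to 11160. Every tissue had the highest summed level of its own 4 identity markers (8 of 8 tissues, 2.80 to 410 times the next tissue). Of the 5 fibroblast markers, the collagen genes Col3a1 and Col1a1 were called lower in 8 and 7 tissues and Col1a2 in 2, whereas Dcn was called in none and Pdgfra higher in 3. Some libraries also held markers of other tissues or cells, and each such list with 2 or more members called in the same direction is given beside the results of that tissue.

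The genes lie on different chromosomes apart from 3 that share chromosome 8 (GRCm38, coordinates of the deposited table). Fos spans chr12:85473890-85477273 on the plus strand, Jun chr4:95049034-95052222 on the minus strand and Nr4a1 chr15:101254269-101274795 on the plus strand. Junb at chr8:84974484-84978718 and Ier2 at chr8:84661331-84662854, both on the minus strand, share a chromosome with Jund at chr8:70698949-70700616 on the plus strand. Fosb (chr7:19302696-19310051) and Atf3 (chr1:191170296-191218039) are minus-strand genes. So is Dusp1 (chr17:26505590-26562128). The libraries were strand-specific, but the strand setting of the counting is not given in the sources used here. Exons of 4 genes overlap an exon on the other strand: Jund with Gm11175 over 877 bases (52.6% of its length), Jun with Junos over 232, Junb with Prdx2 over 173 and Dusp1 with Ergic1 over 11, and their counts are to that extent uncertain.

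The cAMP response element, the site that CREB and ATF factors bind, has the full letters TGACGTCA and the half-site TGACG (searched on both strands, so that CGTCA also counts). In the 250 bases before the RefSeq transcription start (GRCm38.p6), a half-site was present in 6 of the 8 genes with an entry in the promoter table that was searched, against 17.8% of 32851 promoter windows of the same length. A full site was present in Dusp1 alone of these 8, against 1.55% of all windows. One window of 30 bases per gene is shown, with the site nearest to the start (for Dusp1 the full site) in capitals, to show the letters behind this count. Each is written 5′ to 3′ on the strand of the gene.
Fos, chr12:85473812-85473841, site 66 bases before the start: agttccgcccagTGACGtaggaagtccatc
Fosb, chr7:19310088-19310117, 60 bases before: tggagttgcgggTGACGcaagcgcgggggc
Junb, chr8:84978837-84978866, 106 bases before: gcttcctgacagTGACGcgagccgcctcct
Atf3, chr1:191183334-191183363, 7 bases before: cctggaagctattaatagcattaCGTCAgc
Nr4a1, chr15:101266794-101266823, 40 bases before: cccctctccatgCGTCAcggagcgcttaag
Dusp1, chr17:26508598-26508627, 143 bases before: cggtagggcgggTGACGTCAccgcccggtc
The other half-sites were 1 more in Fos, 1 more in Dusp1 and 3 more in Nr4a1. Jun and Jund held none, and Ier2 and Egr1 were not searched. The RefSeq start of Atf3, Nr4a1 and Dusp1 lies 34706, 12577 and 53656 bases from the outer end of the gene in the count table, that of Jund 1210 bases. Of other motifs, the TATA box TATAAA was found in Fos (7.59% of all windows) and the EGR site GCGNGGGCG in Fosb and Nr4a1 (4.70%). The AP-1 site TGANTCA (6.75%) and the CArG box bound by SRF (1.47%) were in none of the 8 windows. A match is a description of the letters and not a bound site.

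Which tissues held most of these transcripts was read first from the fed libraries. In the fed mice, all 10 genes had their highest CPM in lung, the tissue that was highest for 16.2% of 21355 genes in the same libraries. Dusp1 reached 273 CPM there, Jun 257, Jund 142, Fos 129, Nr4a1 128.3 and Junb 104. For Nr4a1 this was nearly a tie with brown adipose (127.5 CPM). The level of Fos in fed lung was 76.4 times that in fed liver, the lowest tissue, and for Fosb the same ratio was 134. Jund was the most even of the 10 (6.04 times between fed lung and fed muscle). With TMM scaling, which moves levels between tissues of unlike RNA composition, these ratios were smaller: 35.05 for Fos and 61.6 for Fosb between lung and liver, with kidney as the lowest tissue of both, and 2.31 for Jund, still the most even. Under it lung was highest for 9 of the 10, while Nr4a1 was highest in muscle (191 against 87.3 scaled CPM in lung). In the fasting libraries lung was highest for 7 of the 10 by library totals and for 6 with TMM scaling. By library totals, Nr4a1 was highest in brown adipose (239 CPM), Atf3 in heart (21.7 CPM) and Junb in spleen (61.9 CPM).

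**Figure D1:**
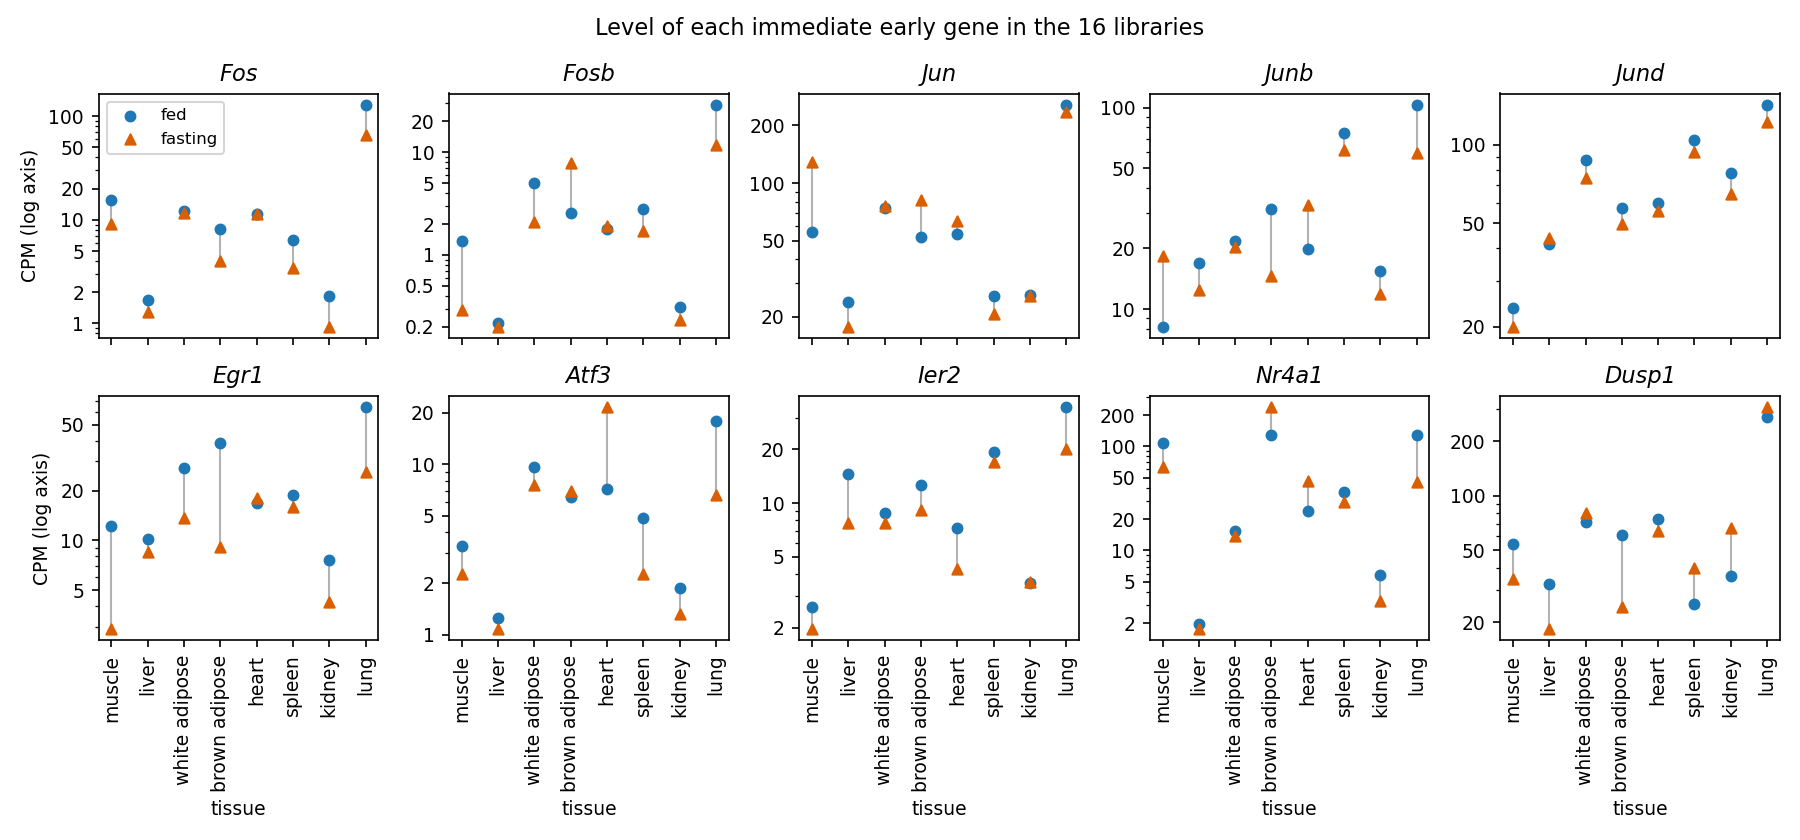
CPM (log axis) of each of the 10 genes in the 8 tissues, with the fed library as a blue circle and the fasting library as an orange triangle, joined by a grey line. Lung held the highest fed value in all 10 panels, with Dusp1 at 273 and Fosb at 29.1 CPM.

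When each tissue is given by its 2 libraries, fed and fasting, neighbours in the order of levels often overlapped. Fos in lung (66.0 to 129 CPM) stood apart from muscle (9.08 to 15.7), which overlapped white adipose (11.7 to 12.3). Heart followed at 11.3 to 11.5, brown adipose at 4.001 to 8.13 overlapped spleen at 3.41 to 6.40, and liver (1.28 to 1.69) overlapped kidney (0.931 to 1.83). For Jun, lung (234 to 257 CPM) was apart from a run of 4 overlapping tissues, namely muscle, white adipose, brown adipose and heart, whose values ranged from 52.0 to 129. Jun in kidney (25.76 to 26.2) was nearly tied with spleen (20.7 to 25.70), which overlapped liver (17.8 to 24.1). Of the 7 steps between neighbouring tissues, Ier2 had 6 without overlap and Jund 5, whereas Egr1 and Dusp1 had 1 each. This comparison is of library values alone and leaves out counting error.

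Levels can be compared between genes only per length, here as CPM per kilobase of exon (RPKM). The median over the 8 fed tissues was 41.2 RPKM for Jund, 17.4 for Dusp1, 16.6 for Jun, 9.04 for Junb, 8.60 for Nr4a1 and 7.002 for Ier2. It was 4.17 for Fos, 3.97 for Egr1, 2.62 for Atf3 and 0.352 for Fosb. By these medians, the JUN-family partners of AP-1 were listed at higher levels than the FOS-family partners. In single tissues, Fos was above Junb in fed lung (55.0 and 45.0 RPKM) and fed muscle (6.66 and 3.56 RPKM). It was below Junb in the other fed tissues.

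The main question of the design is what 24 h without food changed in each tissue. Over the 80 combinations of gene and tissue, 61 were lower and 19 higher in the fasting library (59 and 21 with TMM scaling). A combination was called where the log2 fold change (pseudocount 0.01 CPM) was above 0.5 in size and Fisher's exact test (two-sided, unadjusted) gave p under 0.01. By this rule 26 were lower (32.5%), 10 higher (12.5%) and 44 not called, where 9.94% of all combinations of a tissue and a gene with at least 1 CPM were called lower and 7.93% higher. The test compares 2 libraries of pooled tissue and holds counting error only, so it is no test of the treatment, and the same is true of the 95% intervals given here. Fos, Egr1 and Ier2 were called only as lower, Jun only as higher, Jund in no tissue, and 5 genes (Fosb, Junb, Atf3, Nr4a1 and Dusp1) were called in both directions in different tissues.

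**Figure D2:**
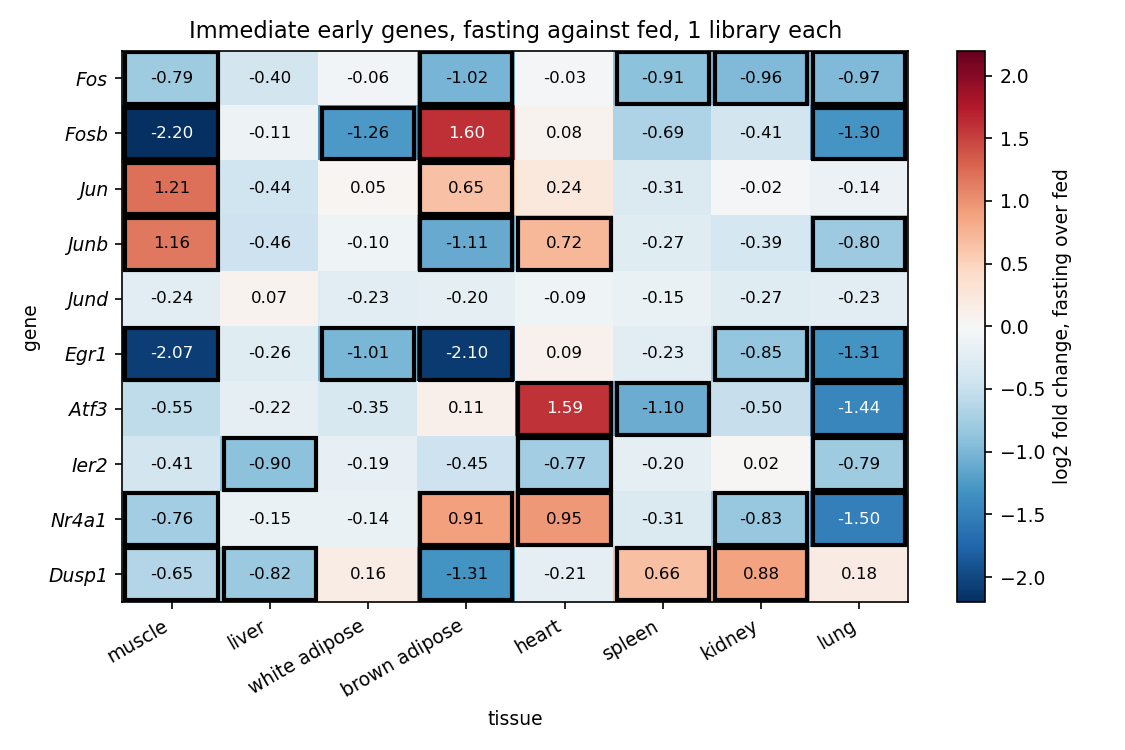
Log2 fold change of fasting over fed CPM (pseudocount 0.01) for the 10 genes (rows) in the 8 tissues (columns), 1 library each, with blue for lower and red for higher in fasting. Outlined cells are the 36 called combinations; lung holds 7, all lower, and Jund has none.

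Lung showed the most one-sided pattern. In the fasting lung library 7 of the 10 genes were called lower and none higher, while 6.49% of all genes with a count were called lower and 2.68% higher (10.1% and 4.23% of those with at least 1 CPM). Nr4a1 read 128 CPM in fed and 45.4 CPM in fasting lung, 2.83-fold lower (Fisher's exact test, p = 2.13e-300). Atf3 read 17.9 and 6.57 CPM, 2.72-fold lower. Egr1 read 64.1 and 25.8 CPM, 2.48-fold lower, and Fosb 29.1 and 11.8 CPM, 2.46-fold lower. Fos fell from 129 to 66.0 CPM (1.96-fold), Junb from 104 to 59.3 (1.75-fold) and Ier2 from 34.5 to 20.0 (1.73-fold). Jun (257 and 234 CPM), Jund (142 and 122 CPM) and Dusp1 (273 and 309 CPM) were not called. The median log2 fold change of the 10 was -0.89, beside -0.09 for all genes with at least 1 CPM in lung.

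The 2 lung libraries also differed in markers of other cells. All 5 B-cell markers (Ms4a1 and Cd22 among them) were called lower in fasting lung, their sum going from 202 to 104 CPM, and so were all 5 T-cell markers, among them Trbc2 and Lck, with a sum of 67.8 against 20.2 CPM. All 4 heart identity markers were called lower as well (880 and 447 CPM). Of 8 neutrophil markers, Csf3r and S100a9 among them, 4 were called lower and 2 higher (131 and 84.9 CPM), whereas none of 7 macrophage markers, Lyz2 and Csf1r included, was called (4491 and 4099 CPM). All 4 spleen identity markers, B-cell genes of which Ms4a1 is also in the B-cell list, were called lower (139.8 and 65.5 CPM), as were 3 of 4 liver identity markers (16.2 and 10.6 CPM), 2 of 5 fibroblast markers (1938 and 1609 CPM) and 2 of 5 mesothelial markers (243 and 224 CPM). Of 4 white adipose identity markers 2 were called higher and 1 lower (68.5 and 94.5 CPM). None of the markers of these lists was at 0 in both lung libraries. The 4 lung identity markers were not called (23434 and 24425 CPM). The part of these cells in the lung result was not tested.

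Muscle had 5 genes called lower and 2 higher, beside a background of 9.39% lower and 4.42% higher over all genes with a count (16.4% and 7.8% of those with at least 1 CPM). Fosb read 1.37 CPM fed and 0.291 CPM fasting, from 33 and 9 counts, 4.59-fold lower with a 95% interval of the log2 fold change from -3.48 to -1.14. Egr1 (chr18:34859823-34864984, plus strand) went from 12.2 to 2.91 CPM, 4.19-fold lower (interval -2.43 to -1.72). Fos (15.7 and 9.08 CPM), Nr4a1 (107 and 63.2 CPM) and Dusp1 (54.4 and 34.7 CPM) were lower by 1.72, 1.70 and 1.57-fold. In the same libraries Jun rose from 55.6 to 129 CPM, 2.31-fold (interval 1.12 to 1.30 on the log2 scale), and Junb from 8.18 to 18.3 CPM, 2.23-fold. Fos and Fosb were thus lower and Jun and Junb higher in muscle, while Jund (23.6 and 20.04 CPM) was not called. All 4 white adipose identity markers were called lower in fasting muscle (87.8 and 40.0 CPM), and 3 of 5 fibroblast markers (1822 and 1305 CPM), together with 2 of 4 heart identity markers (32.3 and 20.4 CPM). Their part in the result was not tested.

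Brown adipose also had 7 called genes, 4 lower and 3 higher, where the background was 7.58% lower and 5.39% higher (12.2% and 8.68% at 1 CPM or more). Egr1 went from 38.8 to 9.06 CPM, 4.28-fold lower (interval -2.38 to -1.83). Dusp1 was 2.48-fold lower (60.6 and 24.4 CPM), Junb 2.15-fold (31.4 and 14.6 CPM) and Fos 2.03-fold (8.13 and 4.001 CPM). Fosb was 3.03-fold higher, with 2.59 CPM from 43 counts in the fed and 7.86 CPM from 112 counts in the fasting library. Nr4a1, which is known to be induced in brown fat by cold and adrenergic signals, rose from 128 to 239 CPM (1.88-fold, interval 0.83 to 0.99), and Jun from 52.0 to 81.4 CPM (1.57-fold). Fos and Fosb, both AP-1 partners, were therefore called in opposite directions here. The 4 muscle identity markers were all called lower in fasting brown adipose (2001 and 942 CPM), as were 6 of 12 heat shock genes and 3 of 5 fibroblast markers (1248 and 780 CPM) and 2 of 8 neutrophil markers (5.54 and 1.54 CPM). Among the heat shock genes, Cryab, a small heat shock protein that muscle also expresses, was 3.13-fold lower and Hspa8, a constitutive chaperone, 1.46-fold. Hspa1a was 2.92-fold lower, Hspa1b 2.84-fold, Hsph1 2.27-fold and Dnaja1 1.85-fold. Whether these moved the 10 genes was not tested.

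Heart was the only tissue in which the median of the 10 was above 0, at a log2 fold change of 0.08 beside -0.07 for all genes with at least 1 CPM, and it kept that sign under TMM scaling (0.14). Atf3 rose from 7.20 to 21.7 CPM, 3.01-fold (interval 1.29 to 1.90). Nr4a1 rose from 23.99 to 46.4 CPM (1.93-fold) and Junb from 19.8 to 32.7 CPM (1.65-fold). Ier2 was lower, at 7.26 and 4.26 CPM (1.70-fold). The background was 4.33% higher and 5.8% lower (7.01% and 9.65% at 1 CPM or more). Fos (11.5 and 11.3 CPM) and Egr1 (16.9 and 17.96 CPM) differed by less than counting error, with intervals from -0.33 to 0.27 and from -0.16 to 0.33. All 4 liver identity markers were called higher in fasting heart (23.2 and 83.5 CPM), as were 2 of 4 lung identity markers (42.9 and 62.7 CPM), and 2 of 5 fibroblast markers were called lower (1175 and 1052 CPM). Of 12 heat shock genes, Hspa1a (2.39-fold), Bag3 (1.63-fold) and Hspb1 (1.56-fold) were called higher there and Hsph1 lower (1.54-fold). The part of these genes in the heart result was not tested.

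Kidney held low levels of several members, and 3 genes were called lower and 1 higher against a background of 3.93% lower and 2.77% higher (6.23% and 4.48% at 1 CPM or more). Egr1 went from 7.62 to 4.23 CPM and Nr4a1 from 5.79 to 3.26 CPM, 1.80 and 1.77-fold lower. Fos rested on 41 and 24 counts (1.83 and 0.931 CPM, 1.95-fold lower, Fisher's exact test p = 0.00870), and this call was lost with TMM or DESeq2 scaling. Dusp1 rose from 36.2 to 66.5 CPM (1.84-fold, interval 0.76 to 0.999). Fosb had 7 and 6 counts, too few to show a difference at this depth. No marker of B cells, T cells or neutrophils was called in kidney, and the 4 kidney identity markers summed to 29023 CPM fed and 26753 CPM fasting, with 1 of them called lower. Of other lists, 3 of 4 liver identity markers were called lower although their sum was higher (1246 and 1636 CPM), 2 of 4 white adipose identity markers lower (36.04 and 39.998 CPM) and 2 of 4 brown adipose identity markers higher (1.83 and 7.45 CPM). Of 5 fibroblast markers 2 were called lower (350.03 and 311 CPM), as was 1 marker each of macrophages, erythroid cells and spleen identity, and 2 of 12 heat shock genes were called higher. Their part in the kidney calls was not tested.

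In spleen Dusp1 was 1.58-fold higher (25.3 and 40.0 CPM), while Atf3 (4.86 and 2.26 CPM) and Fos (6.40 and 3.41 CPM) were 2.14 and 1.87-fold lower. With 2.31% of genes called higher and 1.62% lower (3.62% and 2.33% at 1 CPM or more), spleen had the smallest background of the 8 tissues. The fed spleen library held transcripts of 7 acinar enzymes of the pancreas, Pnlip and Cel among them, at 427 CPM in sum against 0.647 CPM in the fasting library, all 7 called lower. All 7 erythroid markers, led by Hbb-bs and Hba-a1, were called higher in fasting spleen (3866 and 9394 CPM), and 4 of 8 neutrophil markers lower and 1 higher (160 and 108 CPM). Of 5 fibroblast markers 2 were called lower and 1 higher (562 and 539 CPM). None of the markers of these 4 lists was at 0 in both spleen libraries. Their part in the spleen calls was not tested.

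Liver and white adipose had 2 calls each, all lower. In liver Ier2 read 14.5 CPM fed and 7.73 CPM fasting (1.87-fold) and Dusp1 32.4 and 18.4 CPM (1.76-fold), where 9.52% of all genes were called lower and 4.46% higher (15.8% and 7.34% at 1 CPM or more). Fosb in liver had 5 counts in either library, and Fos 39 and 32. In white adipose Fosb was 2.39-fold lower (4.98 and 2.08 CPM) and Egr1 2.02-fold lower (27.5 and 13.6 CPM), where 5.84% of all genes were called lower and 13.2% higher (9.23% and 19.8% at 1 CPM or more). TMM scaling moved all log2 fold changes by 0.12 in liver and by -0.11 in white adipose, and the 4 calls stood under it. Of 7 acinar markers 6 were called higher in fasting liver (65.7 and 186 CPM), and of 5 epididymal markers 3 were called lower in fasting white adipose (10.3 and 0.948 CPM). Of 5 fibroblast markers 2 were called lower and 1 higher in fasting liver (237 and 230.4 CPM). In fasting white adipose 2 of 4 of its own identity markers were called lower (13721 and 10057 CPM) and 2 of 4 heart identity markers higher (1.25 and 8.09 CPM). Their part was not tested.

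Jund, the JUN-family member known for steady expression, was called in no tissue: its log2 fold changes ran from -0.27 in kidney to 0.07 in liver, and 7 of 8 were below 0. It was counted deeply in all libraries (568 to 4396 counts). Fosb spanned the widest range of the 10, from -2.20 in muscle to 1.60 in brown adipose, on the lowest counts. The span was 3.03 for Atf3, 2.45 for Nr4a1, 2.26 for Junb, 2.19 for Dusp1 and Egr1, 1.64 for Jun, 0.99 for Fos and 0.92 for Ier2.

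To ask which of the genes moved the same way in the 8 tissues, edgeR's quasi-likelihood test was run over the 16 libraries (terms for tissue and treatment, Benjamini-Hochberg adjusted p under 0.05 over 17296 genes). Here the spread of a change between tissues serves as the error (n = 8 tissues, all from the same 2 pools of mice, and so not independent animals). Fos was the only one of the 10 to pass: it fell by 0.59 on the log2 scale (SE 0.13, adjusted p = 0.0372 with edgeR) and was lower in 8 of 8 fasting libraries by CPM on library totals. With the TMM scaling of this test it was lower in 7 of 8, the value in heart turning from -0.03 to 0.03. Over all genes tested, 2.08% were called lower and 2.31% higher. The Fos call was lost when brown adipose, kidney, lung, muscle or spleen was left out (edgeR adjusted p from 0.0610 without spleen to 0.0974 without brown adipose) and stood without heart, liver or white adipose, with estimates from -0.69 to -0.54 over the 8 fits. Ier2 (log2 fold change -0.43, SE 0.11) and Egr1 (-0.92, SE 0.25), each lower in 7 of 8 tissues, had edgeR adjusted p of 0.0532 and 0.0638. Both passed with DESeq2's Wald test, Ier2 also with library totals alone and Egr1 without the filter on low counts.

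The other 7 estimates were smaller than, or within 2 times, their standard errors. Fosb was at -0.54 (SE 0.36), Atf3 at -0.28 (SE 0.29), Nr4a1 at -0.19 (SE 0.26) and Junb at -0.13 (SE 0.23). Jund was at -0.13 with the smallest SE, 0.06, Dusp1 at -0.09 (SE 0.22) and Jun at 0.19 (SE 0.17). Their edgeR adjusted p lay between 0.256 for Jund and 0.845 for Dusp1. Of the 10 estimates 9 were below 0, with a median of -0.24 beside -0.01 for all genes tested.

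**Figure D3:**
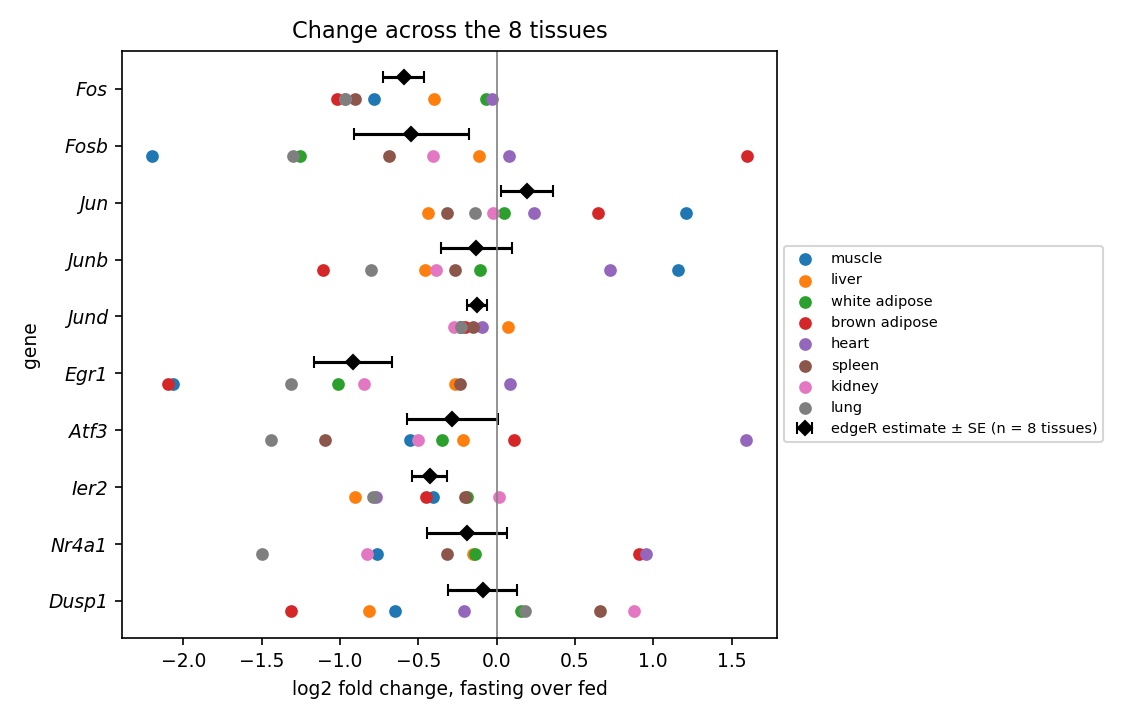
Log2 fold change of fasting over fed for each gene: coloured points are the 8 tissues (1 library per treatment) and the black diamond is the edgeR estimate across tissues with its standard error. Fos (-0.59) has all 8 points below 0 on library totals (7 with TMM scaling), whereas Fosb runs from -2.20 to 1.60.

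The 10 genes did not move as 1 block over the tissues. Among the 45 pairs of genes, Pearson's r of the log2 fold changes over the 8 tissues (pseudocount 1 CPM) was above 0 for 28, with a median of 0.14 and a range from -0.69 for Jun with Egr1 to 0.83 for Atf3 with Nr4a1. These are descriptions over 8 points that share the same 2 pools of mice and, within a tissue, the same 2 libraries. By the same measure, the genes whose fold changes over the 8 tissues had the highest r with the mean of the 10 were Bmp6 (r = 0.95), Ifi211 (0.93), Grap2, Apoh and Fyb (0.92 each), Dars and Gc (0.91 each) and Washc3 (0.90), of 13436 genes compared. Picking the highest of so many genes on 8 points gives high values of r by itself, and how high was not tested. The mean of the 10 was lowest in lung (-0.80) and highest in heart (0.25), and r over the other 6 tissues ran from -0.05 for Dars to 0.81 for Gc (0.66 for Bmp6). A high r does not mean the same direction: Bmp6 was higher in fasting in 7 of 8 tissues and had the sign of the mean in 2, whereas Grap2 had it in 8.

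Other immediate early genes were described from a list of 40, chosen by function, with earlier results of these data known. Over their 320 combinations with a tissue, 91 were called higher in the fasting library (28.4%) and 45 lower (14.1%), whereas of the 80 of the 10 genes 12.5% were called higher and 32.5% lower. Over all genes with at least 1 CPM, 7.93% of the combinations were called higher and 9.94% lower. The list had 24 higher and 3 lower calls in heart, 17 and 8 in muscle and 15 and 3 in kidney, 12 and 5 in white adipose, 9 and 6 in brown adipose and 3 and 2 in spleen. In lung it had 6 and 10, and in liver 5 and 8, where lower calls were also the more frequent over all genes (15.8% lower and 7.34% higher in liver at 1 CPM or more). In white adipose higher calls were the more frequent over all genes as well (19.8% and 9.23%). Its median log2 fold change was 0.77 in heart, 0.32 in kidney, 0.30 in muscle and -0.14 in lung, and between -0.08 and 0.15 elsewhere.

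**Figure D4:**
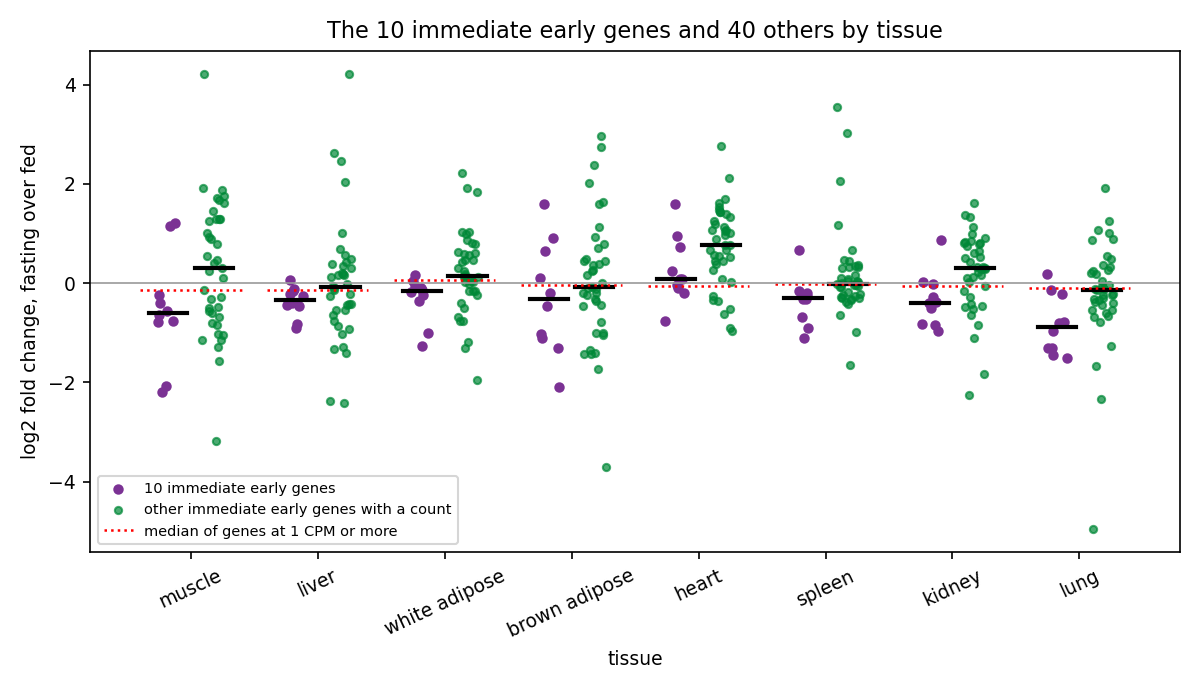
Log2 fold change of fasting over fed by tissue for the 10 genes (purple) and for those of the 40 other immediate early genes with a count (green); black bars are medians and the red dotted line is the median of all genes with at least 1 CPM. In lung the median of the 10 was -0.89 and that of the others -0.14; in heart the values were 0.08 and 0.77.

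The edgeR fit across tissues called 7 of the 38 tested as higher, where 2.31% of all genes were. With 1 tissue left out this count ran from 2 to 7. Sik1 and Per1 kept the call in all 8 such fits, whereas it was lost in 6 of 8 for Maff, 4 for Errfi1, 3 each for Rhob and Cebpd, and 2 for Gadd45g, with edgeR adjusted p of at most 0.109. Cebpd, a transcription factor of acute-phase and adipogenic responses, was called higher in 8 of 8 tissues within tissues as well, with a log2 fold change of 1.75 (SE 0.35) and its largest rise in muscle, from 10.8 to 203 CPM. Per1, a clock gene, was called in 7 of 8 tissues (1.31, SE 0.16). Gadd45g (1.22, SE 0.21) and Errfi1, a feedback inhibitor of the EGF receptor (0.91, SE 0.18), were called in 6 of 8 tissues each, and Maff, a small MAF protein, in 5 (1.16, SE 0.26). Rhob (0.55, SE 0.10) and Sik1 (0.53, SE 0.09), a kinase that restrains CREB coactivators, were called in 4 each. Gadd45b, a stress-inducible relative of Gadd45g, was called higher in 6 tissues, with 0.391 and 7.45 CPM in liver, and Myc in 5, with 2.27 and 15.5 CPM in heart, 3.96 and 12.1 CPM in kidney, and lower in liver (8.99 and 4.93 CPM); neither passed across tissues (edgeR adjusted p = 0.113 and 0.125). Nr4a3, the relative of Nr4a1, rose in brown adipose from 5.48 to 42.6 CPM.

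Of the genes that fell, Egr3, the close relative of Egr1, was the only one called lower across tissues (log2 fold change -1.35, SE 0.31, edgeR adjusted p = 0.0387). This call was lost in 6 of the 8 fits that left out 1 tissue, all but those without liver or spleen (edgeR adjusted p from 0.0404 to 0.0927, estimates from -1.57 to -1.14). It was called lower in 5 tissues, with 6.62 CPM fed and 1.30 CPM fasting in lung, 2.83 and 0.729 CPM in white adipose, and 46.8 and 30.1 CPM in spleen. Plk2 was called lower in 6 tissues, by library totals most in muscle (14.6 and 6.01 CPM). With TMM scaling its log2 fold change was lowest in white adipose (-1.29, beside -1.21 in muscle). Plk2 missed the threshold across tissues (edgeR adjusted p = 0.0532). Socs3, a feedback inhibitor of cytokine signalling, was called lower in 5 tissues and higher in heart (5.98 and 16.1 CPM). Phlda1 was lower in liver (61.0 and 11.7 CPM), brown adipose (7.17 and 2.67 CPM) and white adipose (8.76 and 5.14 CPM) and higher in muscle (1.62 and 2.81 CPM). Gem in heart, by -0.62 on the log2 scale, and Ccn1 in spleen, by -1.65, were the largest falls there among those called genes of the list that reached 5 CPM in either library.

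Of 20 genes for SRF and its partners, CREB and its coactivators, and the kinases that act on them, 3 combinations with a tissue were called higher and 10 lower of 160 (1.88% and 6.25%, beside 7.93% and 9.94% over all genes with at least 1 CPM), and none passed across tissues in edgeR (3 had an unadjusted p under 0.05) or in DESeq2. Mrtfa, an actin-regulated SRF coactivator, was lower in muscle (39.5 and 8.57 CPM) and Crem in liver (31.7 and 21.2 CPM). Elk1 was called lower in brown adipose (17.7 and 11.9 CPM), white adipose (31.6 and 21.7 CPM) and liver (7.03 and 4.77 CPM). Srf itself was called higher in brown adipose (log2 fold change 0.56) and lower in lung (-0.55). Elk4 was higher in muscle (0.76), Rps6ka3 lower in white adipose (-1.40) and Mapk14 lower in heart (-0.51).

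Of 10 AP-1 related factors and EGR repressors, 9 combinations were called higher and 7 lower of 80 (11.2% and 8.75%). At 1 CPM or more the shares were 13.4% and 10.4%, beside the same 7.93% and 9.94%. The lower share was thus near the background, and the difference of the higher share from it was not tested. Jdp2, which represses AP-1, was the only one called across tissues (0.57, SE 0.10, edgeR adjusted p = 0.0159), higher in all 8 fasting libraries and called in 4. Nab2, a corepressor of EGR1, was called lower in 3 tissues, with 20.9 and 11.1 CPM in liver. Mafg, a small MAF protein, was higher in muscle (0.98). Nab1 was lower in muscle (-0.75), Batf3 in white adipose (-0.59) and Batf in lung (-0.51). Of 5 genes for proteins that bind AU-rich elements, which shorten or lengthen the life of such transcripts, 2 combinations were called higher and 2 lower of 40, or 5% in each direction beside 7.93% and 9.94%. These were Zfp36l1 (-1.15 in liver, 0.54 in white adipose) and Zfp36l2 (-1.09 in brown adipose, 1.05 in spleen). Zfp36, of the same family, is in the list of 40 and is not counted among these 5. It was called higher in 3 tissues and lower in none (across tissues 0.55, SE 0.19, edgeR adjusted p = 0.114).

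Other lists of known responses are given as values beside the 10 genes, and their part in the results was not tested. Over all genes with at least 1 CPM, 7.93% of combinations were called higher and 9.94% lower. Of 8 glucocorticoid-responsive genes, Klf9 and Tsc22d3 being the highest, 53 of 64 combinations were called higher (82.8%) and none lower, with 4 to 8 genes higher in each tissue, and 7 of 8 were called higher across tissues in edgeR, beside 2.31% of all genes (Per1 is also in the list of 40). Dusp1 is known as a glucocorticoid target too, and was called higher in spleen and kidney and lower in muscle, liver and brown adipose. Of 12 heat shock genes, with 14.6% of combinations called higher and 15.6% lower, 8 were called higher in liver and 2 in kidney with none lower, and 6 were called lower in brown adipose, 3 in muscle, 2 in spleen and 1 in lung with none higher. In heart 3 were called higher and 1 lower, and in white adipose 1 higher and 2 lower. Endothelial markers (Pecam1 and Cdh5 the highest) had 1 higher and 4 lower calls of 48 combinations (2.08% and 8.33%, below those shares). Mesothelial markers (Krt19 and Upk3b) had 3 and 6 of 40 (7.5% and 15%). Of the 23 mesothelial combinations with at least 1 CPM, 13% were called higher and 21.7% lower.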

How the data were processed

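The authors prepared strand-specific libraries from pooled tissue, sequenced them as paired-end reads of 100 bp, and, per the submitters' notes and the study's methods, used fastp 0.23.2, FastQC 0.11.8, HISAT2 2.2.1.0 on GRCm38 and featureCounts (Subread 2.0) with GENCODE release 24. They deposited raw read counts per gene with each gene's length; the strand setting, and whether single reads or pairs were the unit, are not given in the sources used here. Symbols were matched by identifier to GENCODE release 21 (54487 of 55385 genes with version, 55144 without). Total counts per library were 14245178 to 36069968; intervals (exact Clopper-Pearson, 95%) and the floor of 3 counts cover counting error only.

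Within a tissue, log2((CPM fasting + 0.01)/(CPM fed + 0.01)) was taken and a gene was called by a two-sided Fisher's exact test on the 2 libraries (p under 0.01, log2 fold change above 0.5). With 1 library per treatment this compares libraries and not conditions. Across tissues, edgeR 4.0.16 (R 4.3.3) fitted a model with terms for the tissue and the treatment by quasi-likelihood, after filterByExpr and TMM scaling (7 residual degrees of freedom, coefficient of variation 0.196, Benjamini-Hochberg adjusted p under 0.05); standard errors were taken from the F statistic. Alternatives included DESeq2 1.42.0. Both steps were tested on simulated data. Promoter sequences are from RefSeq (GRCm38.p6).

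The members and the gene lists were chosen with earlier results of these data known. Named genes of the other lists are those called in the same direction in at least 5 tissues, the largest called rise and fall in each tissue at 5 CPM or more, those called across tissues, and the 2 highest of each marker and response list. A gene that this rule selects is not reported here. Egr3 in white adipose and spleen, Cryab and Hspa8 in brown adipose and the values of Myc in liver and kidney were added after seeing the data. So were Zfp36, and Elk1 in liver and white adipose. The other heat shock genes named in heart and brown adipose are also outside this rule. Calculations and plots used scipy 1.17.1, pandas 2.3.3 and matplotlib 3.10.9 in Python 3.11.15.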

Additional observations from a re-analysis of the deposited data

Results flagged for a closer look

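For 5 of the 10 genes the fasting library was called higher than the fed one in 1 tissue and lower in another, and these are listed here because their direction differed between tissues. The difference between the 2 tissues' log2 fold changes was 3.80 for Fosb (brown adipose 1.60, muscle -2.20), 3.03 for Atf3 (heart 1.59, lung -1.44), 2.45 for Nr4a1 (heart 0.95, lung -1.50), 2.26 for Junb (muscle 1.16, brown adipose -1.11) and 2.19 for Dusp1 (kidney 0.88, brown adipose -1.31). With 1 library per tissue and treatment the difference was not tested. Where pools were taken to vary by a coefficient of 0.2, both directions were still called for Fosb and Atf3; for Junb only the rise in muscle, for Nr4a1 only the fall in lung and for Dusp1 only the fall in brown adipose were.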

How the results depend on the processing

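Within tissues, a pseudocount of 1 CPM, a library total without the 10 highest genes or a filter at 1 CPM left the counts of calls close to those reported, and TMM factors, DESeq2 size factors or an adjusted p each ended 1 of the 36 calls; no called combination changed its sign. Sharper rules moved the counts more. With a log2 fold change above 1, 4 combinations of the 10 genes were higher and 13 lower, with 4 called genes in muscle, 0 in liver, 1 in heart, 1 in spleen, 0 in kidney and 4 in lung, and the list of 40 had 54 higher and 22 lower. Where pools were taken to vary by a coefficient of 0.2 (edgeR's exact test), 4 were higher and 9 lower, with 4 in muscle, 0 in liver, 1 in white adipose, 3 in brown adipose, 1 in heart, 0 in spleen, 0 in kidney and 4 in lung, and 43 higher and 13 lower in the list of 40; at an unadjusted p under 0.05 this setting gave 23 of the 80 combinations. At a coefficient of 0.4, 0 of the 80 were called in any of the 8 tissues (3 at an unadjusted p under 0.05), and 7 higher and 3 lower in the list of 40. The true variation between pools is not known from these libraries. Without the lung libraries, chosen after seeing the data, 19 combinations were lower, and without heart 7 were higher.

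Across tissues, edgeR called 400 genes higher and 359 lower. DESeq2's Wald test called 844 and 988, with 3 of the 10 genes and 11 higher and 2 lower of the list of 40. Library totals alone gave 639 lower genes, 2 of the 10 and 2 lower of the 40, and no filter gave 2 of the 10 and 2 lower of the 40. With each tissue omitted in turn, there were 104 to 340 higher and 52 to 381 lower genes, 0 to 1 of the 10, and 2 to 7 higher and 0 to 2 lower of the 40. The smallest counts of genes came without brown adipose, and the count of lower genes of the 40 was 0 in 6 of these 8 fits. For the pairing of fed and fasting libraries by tissue, the fit without the tissue block called 0 genes higher and 1 lower, 0 of the 10 and 0 higher and 0 lower of the 40 (at an unadjusted p under 0.05, 91 genes were higher, with 1 of the 10 and 3 of the 40). The fit tested here is thus the blocked one, in which the tissue pairs the libraries; the labels give no replicate numbers beyond 1. By level, lung was highest for 10 genes in fed libraries, 9 with TMM, 7 in fasting libraries and 6 in fasting libraries with TMM, all 3 chosen after seeing the data.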
